A study of Schizosaccharomyces pombe with 50 samples.

Results

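The mitochondrial genome of fission yeast was covered by 38 of the 6613 gene windows in the deposited ChIP-seq tables, namely every window whose chromosome is the mitochondrial one. They comprise 11 protein-coding genes, 2 rRNA genes and 25 tRNA genes. A window is a gene, or part of a gene as for cox1, with its flanks (the ORF region of the study). The mitochondrial windows span 469 to 3022 bases. All chromatin came from 1 strain, Hu3112, of genotype mat1-M smt-0 pht1-myc. The pht1-myc allele carries the Myc tag through which H2A.Z was precipitated, and both cell states carry it. V cells were taken from mid-log cultures in PMG medium, and Q cells after 24 h in PMG without nitrogen. The 8 antibodies recognise H3, H2A.Z (by its tag), H3K4me3, H3K9ac, H3K9me2, H3K9me3 and the S5 and S2 forms of RNA pol II, and each was used in 3 V and 3 Q libraries that the study calls biological triplicates. The 2 input libraries were not analysed here, so no value is set against input DNA.

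Mitochondrial DNA encodes the core membrane subunits of the respiratory chain and ATP synthase, together with the rRNAs and tRNAs of the mitochondrial ribosome. It lies outside the nucleus in many copies per cell, is not wrapped in histone nucleosomes, and is transcribed by Rpo41, a single-subunit polymerase unrelated to RNA pol II. None of the 8 antibodies is directed at a component that mitochondrial DNA is known to carry.

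The reads in these windows had an upper limit, and that limit has to be known before any V and Q values are compared. The sources give single-end sequencing with 2 runs of 36 cycles, and the counts fit reads of 72 bases. Such a read can touch a window from as many start positions as the window has bases plus 71, on each of 2 strands. In 35 of the 38 mitochondrial windows the highest of the 48 libraries lay within 6 reads of that number of placements. For cox1, the core subunit of cytochrome c oxidase, there were 1750 placements and 1753 reads in the highest library. For cox3, another core subunit of the same enzyme, there were 2580 placements and 2585 reads. The 15S rRNA window, the small ribosomal RNA, had 3786 placements and 3785 reads. The tRNA window SPMITTRNAARG.01 had 1096 of each. Across all 6613 windows and 48 libraries, 14 windows passed the number of placements in any library, by at most 6 reads. In the shorter windows around transcription start sites (TSS) 16 windows did so, by at most 4 reads. The sources used here do not say whether repeated reads were removed. A library near this limit cannot show further reads at a window, so its value there may be a lower limit.

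**Figure D1:**
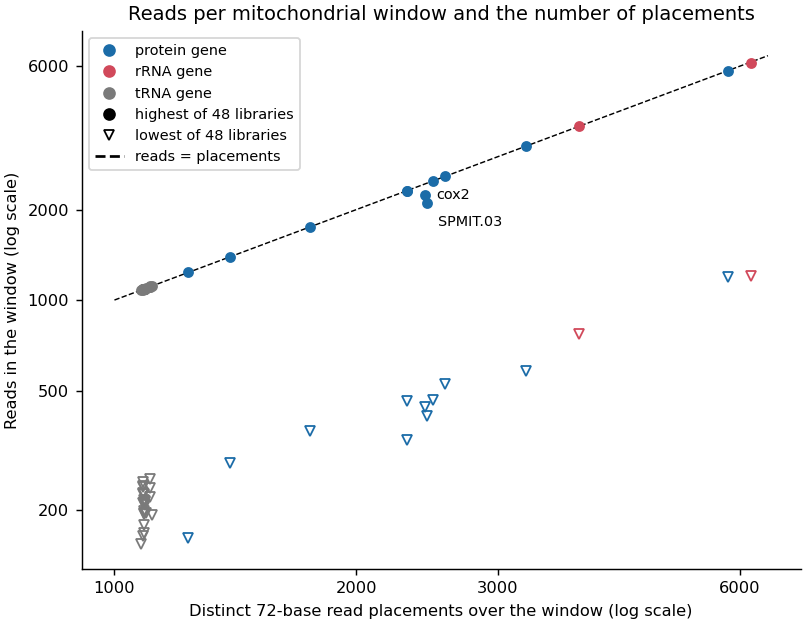
Reads in each of the 38 mitochondrial windows (vertical axis, log scale) against the number of distinct placements of a 72-base read over it (horizontal axis, log scale), in the highest (filled circles) and the lowest (open triangles) of the 48 libraries. The highest counts lie on the line of equality in 35 windows, and SPMIT.03 and cox2 fall below it by 344 and 207 reads.

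The 3 windows that stayed under the limit were 21S rRNA, cox2 and SPMIT.03. The 21S rRNA window, the large ribosomal RNA, starts at the first base of the chromosome (chrMT:1-3022 in the files) and was 57 reads short. The window of cox2, a further core oxidase subunit (chrMT:18361-19507 in the files), ends 74 bases past the length of the RefSeq chromosome (19433 bases, ASM294v3) and was 207 short. SPMIT.03 has no symbol in the files and lies between cox1 and cox3 in window order. It was 344 reads short, or 172 start positions on each strand, and held at most 85.9% of its placements. In its TSS window the highest library came within 3 reads of the limit. In ASM294v3, which is not the files' build (ASM294v2), 76 mitochondrial stretches of 72 bases recur in a nuclear chromosome, and they form 1 run of 147 bases. That run lies at chrMT:7225-7371 on the plus strand, inside cox1-I2b, an intron-encoded protein gene within cox1, and recurs on chromosome II at chrII:36903-37049. The cox1 window (chrMT:4686-5489 in the files) ends before it and covers only part of cox1 as annotated in ASM294v3. The run is shown because reads from inside it cannot be assigned to 1 of the 2 places by sequence. The part in capitals is shared, and 20 mitochondrial bases in lower case flank it on each side:
MT shared run: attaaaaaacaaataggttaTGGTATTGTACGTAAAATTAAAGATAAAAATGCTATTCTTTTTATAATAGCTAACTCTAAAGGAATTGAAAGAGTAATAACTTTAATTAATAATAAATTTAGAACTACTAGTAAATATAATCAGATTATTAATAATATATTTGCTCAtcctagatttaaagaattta
Whether the shortfall of SPMIT.03 comes from this run was not tested.

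The share of placements that were filled, summed over the 38 windows, ranged from 19.9% to 99.0% between libraries, with a median of 59.9%. It exceeded 95% in 13 of 48 libraries, 9 of V cells and 4 of Q cells, and was under 50% in 17, 8 of V cells and 9 of Q cells. V replicate 1 was the fullest V library in all 8 antibodies and passed 95% in 7 of them, with H3K4me3 at 53.8% as the exception. Q replicate 1 was never above 40.3%. Of single window and library pairs, 28.4% were filled over 95% in the mitochondrial genome and 0.333% in the other windows. The median window outside the mitochondrial genome was filled to between 3.05% and 85.6%, with a median over libraries of 27.6%. The median mitochondrial window was filled more than it in 41 of 48 libraries, by a median factor of 2.34 and at most 13.5 (H3K9me2, V replicate 3).

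**Figure D2:**
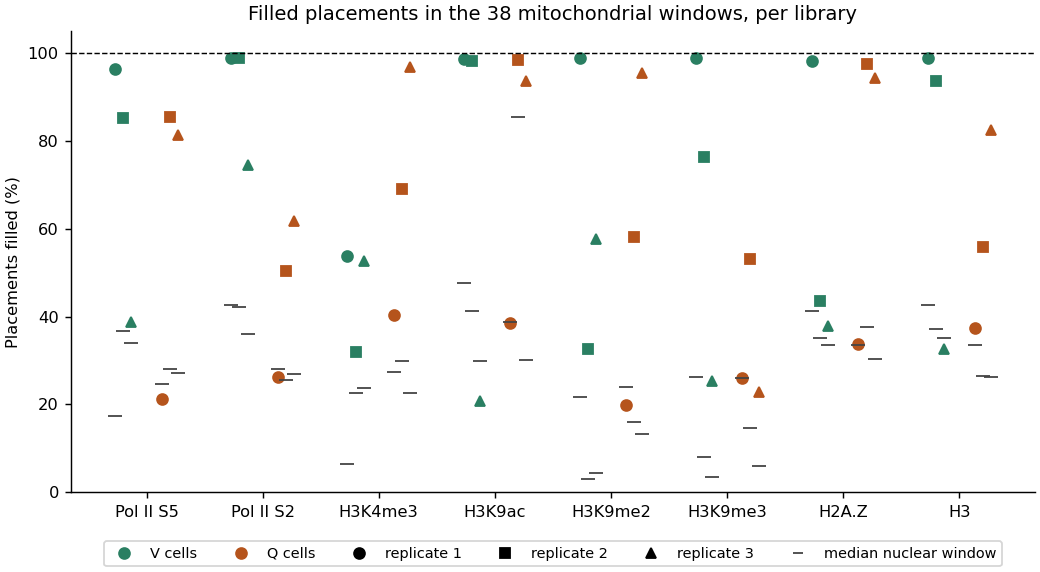
Filled placements in the 38 mitochondrial windows as a percent (vertical axis), for each library of 8 antibodies; colours mark V and Q cells, symbols the replicate number, and dashes the median nuclear window of the same library. V replicate 1 lies at 96.5% or higher in 7 antibodies, and Q replicate 1 lies between 19.9% and 40.3% in all 8.

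H3 shows how far libraries of 1 antibody differed in DNA that carries no nucleosomes. In V cells the mitochondrial placements were filled to 99.0%, 93.6% and 32.6% in replicates 1, 2 and 3, and in Q cells to 37.4%, 55.8% and 82.5%. The range of the Q libraries lay inside that of the V libraries. On the common scale of reads in all ORF windows, the mitochondrial share was 0.475% ± 0.218 (SD, n = 3) in V cells and 0.519% ± 0.249 (SD, n = 3) in Q cells. Overlapping windows count some reads more than once. Over the rRNA and protein-coding windows alone the H3 share was 0.275% ± 0.126 (SD, n = 3) in V cells and 0.300% ± 0.145 (SD, n = 3) in Q cells, and over TSS windows it was 1.37% ± 0.587 and 1.38% ± 0.641 (SD, n = 3 each). The histone precipitations of H3K4me3, H3K9ac and H2A.Z and both RNA pol II precipitations held mitochondrial reads too. Their shares ran from 0.180% (H3K9ac, V replicate 3) to 2.06% (H3K4me3, V replicate 1).

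The highest mean shares were those of H3K9me2 and H3K9me3, the marks of heterochromatin, in V cells. Single libraries of other groups, such as H3K4me3 V replicate 1 (2.06%), lay above some of theirs. H3K9me2 held 1.17%, 2.48% and 3.18% of its V reads in the mitochondrial windows and 0.201%, 0.875% and 1.79% of its Q reads. H3K9me3 held 0.974%, 2.30% and 1.73% in V cells and 0.242%, 0.823% and 0.785% in Q cells. The means were 2.28% ± 1.02 and 0.956% ± 0.799 (SD, n = 3 each) for H3K9me2, and 1.67% ± 0.665 and 0.617% ± 0.325 (SD, n = 3 each) for H3K9me3. Over the rRNA and protein-coding windows alone they were 1.33% and 0.554% for H3K9me2 and 0.968% and 0.360% for H3K9me3, and over TSS windows 5.94% and 2.40% and 4.57% and 1.92%. Depth moved with these shares. The 6 shallowest libraries (856936 to 2168145 reads) were H3K4me3 V replicate 1, V replicates 2 and 3 of H3K9me2 and of H3K9me3, and H3K9me3 Q replicate 3, and their shares were 0.785% to 3.18%. The other 42 libraries (3473542 to 20673131 reads) held 0.180% to 1.79%. Full placement of the 38 windows comes to 65242 reads, so a deep library has a lower possible share, and the part of depth in the difference between V and Q was not tested.

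Each antibody was then compared between Q and V cells with limma on log2(value + 1), where a value is the reads of a window divided by the size factor of its library, the replicate number was a block and p-values were adjusted by Benjamini-Hochberg over all windows. Calls required a log2 fold change beyond 1 in either direction with the adjusted p below 0.05. With this block H3K9me3 fell in all 38 mitochondrial windows, 11 protein-coding, 2 rRNA and 25 tRNA. Of all 6574 windows tested, 42 fell (0.639%), so 38 of the 42 were mitochondrial. The other 4, named after their values were seen, were the non-coding RNA genes SPNCRNA.1506 (-2.29) and SPNCRNA.394 (-1.46) and the windows SPAC212.06c (-1.08) and SPAC212.12 (-1.06). H3K9me2 fell in 36 of the 38 with the block, against 60 of 6574 windows (0.913%). These calls rest on the block. Without it limma called 0 of the 38 windows in either mark (38 of H3K9me3 and 29 of H3K9me2 had an unadjusted p under 0.05), and in neither mark did all same-numbered libraries deviate together. In both marks the median over all windows tested was close to 0 (0.02 and 0.01).

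For H3K9me3 the normalized value of the 21S rRNA window was 2530, 6562 and 5256 in V replicates 1, 2 and 3, and 660, 2386 and 2640 in Q. Only the value of V replicate 1, a library that held 6126 reads in this window, lay below the highest Q value. The fitted log2 fold change was -1.46 (SE 0.15, adjusted p = 2.47e-05, n = 3 per state). The 15S rRNA window had 1563, 4109 and 3211 in V and 440, 1590 and 1719 in Q, and its change was -1.37 (SE 0.14, adjusted p = 2.83e-05). In both rRNA windows V replicate 1 was close to the 2 higher Q libraries, and V replicates 2 and 3 were above them. The normalized values of cob1, cytochrome b of the bc1 complex, were 955, 2530 and 2166 in V and 262, 920 and 1000 in Q, a change of -1.48 (SE 0.13). For var1, a protein of the small mitochondrial ribosomal subunit, they were 953, 2249 and 1694 in V and 220, 770 and 850 in Q, and its change of -1.55 (SE 0.16) was the largest fall among the 38. Here all 3 V values exceeded all 3 Q values. That was so in 16 of the 38 windows, beside 14.7% of all windows.

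The other H3K9me3 windows repeated this pattern. The changes of the 11 protein-coding windows ran from -1.55 to -1.38, with the ATP synthase membrane subunits atp6, atp8 and atp9 at -1.48, -1.51 and -1.38, and the oxidase subunits cox1, cox2 and cox3 at -1.38, -1.48 and -1.39. SPMIT.02, SPMIT.03 and SPMIT.06, which have no symbol, changed by -1.43, -1.40 and -1.40. The 25 tRNA windows ran from -1.51 (SPMITTRNACYS.01) to -1.37 (SPMITTRNAALA.01). The class medians were -1.43 for protein-coding, -1.41 for rRNA and -1.46 for tRNA windows. By rank of the log2 fold change, the mitochondrial windows held places between 2 and 40 from the lowest of 6574.

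For H3K9me2 the 15S rRNA window had 1848, 4612 and 5734 in V replicates 1, 2 and 3, and 340, 1494 and 2960 in Q. The value of Q replicate 3 lay above that of V replicate 1, so the states overlapped. In 0 of the 38 windows were all 3 H3K9me2 Q values below all 3 V values, beside 6.88% of all windows. The fitted change was -1.67 (SE 0.31, adjusted p = 0.00102, n = 3 per state). Values of cox3 were 1260, 3177 and 3918 in V and 231, 1054 and 2007 in Q, a change of -1.67 (SE 0.22, adjusted p = 8.64e-06). The 2 windows without a call were the longest ones. The 21S rRNA window had 2992, 7050 and 9026 in V and 531, 2362 and 4756 in Q, with a change of -1.66 (SE 0.51, adjusted p = 0.124), and SPMIT.06 had 2830, 7109 and 8986 in V and 526, 2316 and 4504 in Q, with a change of -1.68 (SE 0.49, adjusted p = 0.0963). Their fold changes matched those of the called windows, and their fitted SE was larger. Among tRNA windows the change ran from -1.74 (SPMITTRNAARG.01) to -1.50 (SPMITTRNAARG.02), all of them called.

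**Figure D3:**
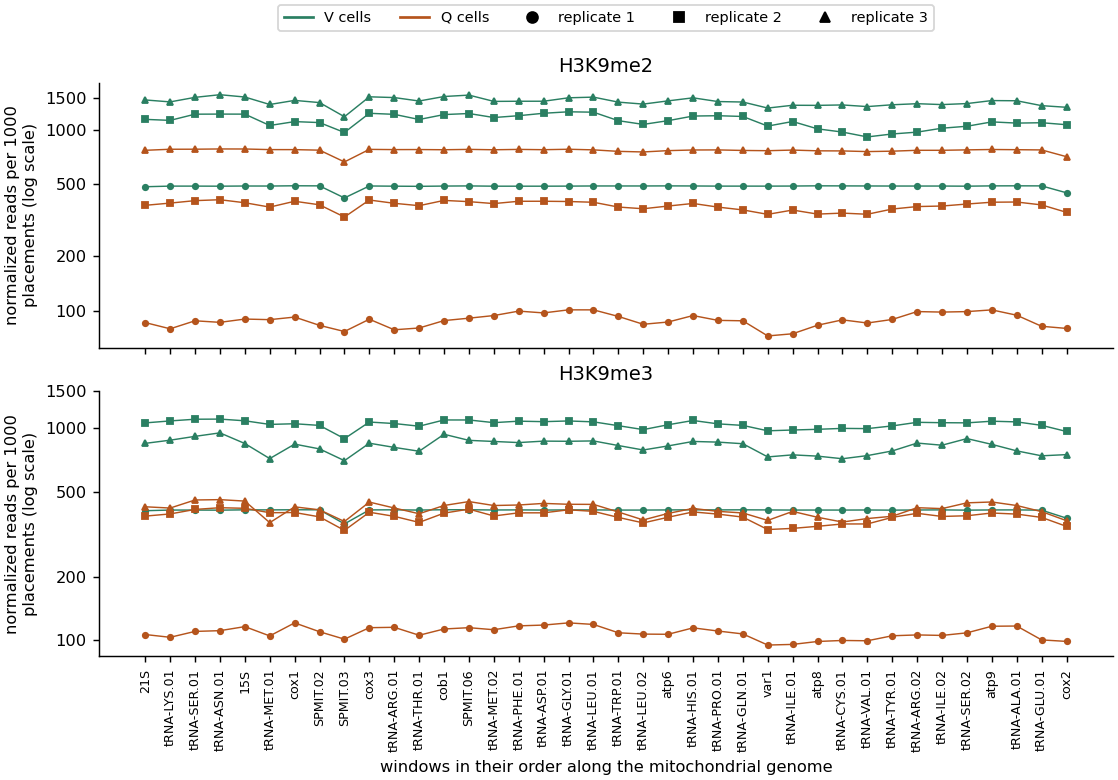
Normalized reads per 1000 placements (vertical axis, log scale) in the 38 mitochondrial windows in their order along the genome, for the 3 V and 3 Q libraries of H3K9me2 (top) and H3K9me3 (bottom). Each library runs nearly level from window to window, the lines of the libraries at their limit (V replicate 1 of both marks, filled to 98.8% and 99.0%) are flat except at SPMIT.03 and cox2, and Q replicate 1 is the lowest line in both marks.

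Paired by replicate number, both marks fell in each pair, by differing amounts. The numbers did not pair all samples of either mark, so the pairs are partly arbitrary. The H3K9me2 median value over the 38 windows was 847.5 in Q replicate 3 and 532.6 in V replicate 1. For H3K9me3 it was 471.7 in Q replicate 3 and 450.6 in V replicate 1. In both marks that pairing would give a rise of the median, a small one in H3K9me3. Over the 38 windows the median log2 difference of Q from V was -1.91, -1.44 and -0.99 in pairs 1, 2 and 3 of H3K9me3 (SD 0.46) and -2.45, -1.57 and -0.89 for H3K9me2 (SD 0.78). The SE that this spread gives is 0.26 and 0.45, larger than the fitted SE of most windows (medians 0.14 and 0.17), which is drawn toward that of other windows with like values. The 38 windows moved together within each library and are not independent measurements of the change. Pair 1 had V libraries filled to 99.0% (H3K9me3) and 98.8% (H3K9me2), and pair 3 of H3K9me2 had a Q library filled to 95.5%. With pair 1 left out, 38 windows of each mark were called, and the share of all windows called is not given for that fit. Relative to H3, fitted as an interaction in limma, 0 were called in either mark (38 and 33 at an unadjusted p under 0.05), with medians of -1.61 for H3K9me3 and -1.79 for H3K9me2. In TSS windows 38 were called for H3K9me3 and 1 for H3K9me2.

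No mitochondrial window was called for the other 6 antibodies, by limma, edgeR or DESeq2, and in limma 0 of 38 had an unadjusted p under 0.05 in each of them. The share of all windows that rose and fell was 5.17% and 0.714% for RNA pol II S5, 1.44% and 0.0912% for RNA pol II S2, 19.4% and 13.8% for H3K4me3, 0% and 0% for H3K9ac, 1.17% and 1.47% for H2A.Z and 1.38% and 0% for H3. The median log2 fold changes of the 38 windows were -0.25 (S5), -0.43 (S2), -0.29 (H3K4me3), 0.04 (H3K9ac), 0.45 (H2A.Z) and 0.15 (H3).

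**Figure D4:**
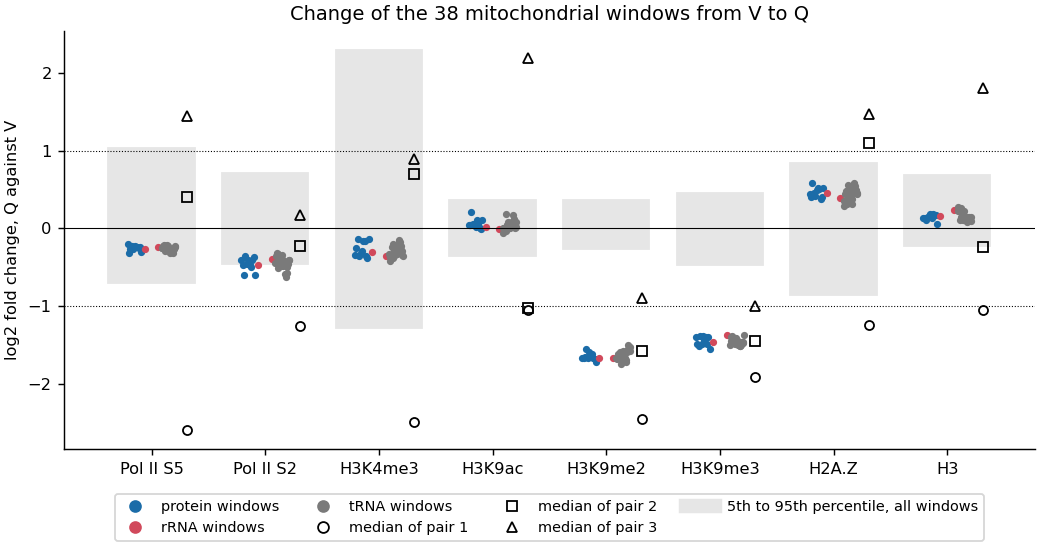
Fitted log2 fold change of Q against V (vertical axis) for each of the 38 mitochondrial windows, by antibody and coloured by class; grey boxes span the 5th to 95th percentile of all windows and open symbols are the median of the 38 windows in each numbered pair of libraries. The windows lie close together in every antibody, only those of H3K9me2 (-1.74 to -1.50) and H3K9me3 (-1.55 to -1.37) lie below -1, and the pairs spread from -2.59 to 1.44 in RNA pol II S5.

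These medians came from pairs that went in opposite directions. For RNA pol II S5, which marks initiating polymerase, the filled shares were 96.5%, 85.2% and 38.7% in V cells and 21.2%, 85.4% and 81.3% in Q cells, and the pairs gave -2.59, 0.41 and 1.44. Leaving out pair 3 made 36 windows fall by the call, and leaving out pair 1 gave a median of 0.93 with 0 called and 38 at an unadjusted p under 0.05. The share of all windows called without a pair is not given here, for S5 or for the antibodies that follow. For H3K9ac, an active mark, the filled shares were 98.7%, 98.2% and 20.7% in V and 38.5%, 98.5% and 93.6% in Q, and the pairs gave -1.05, -1.02 and 2.19. Here 29 windows fell by the call without pair 3. For H2A.Z, the variant histone, they were 98.3%, 43.5% and 37.9% in V and 33.7%, 97.5% and 94.4% in Q, and 37 windows rose by the call without pair 1. Pairs 1, 2 and 3 of H2A.Z gave -1.24, 1.10 and 1.47. For H3K4me3, the mark of promoters, they were 53.8%, 32.0% and 52.6% in V and 40.3%, 69.1% and 97.0% in Q, and the pairs gave -2.49, 0.70 and 0.89. The pairs of H3 gave -1.05, -0.24 and 1.80. In each of these 5 antibodies at least 1 pair fell and another rose, and the lowest and highest pair lay more than 1 apart on the log2 scale.

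The 15S rRNA window shows the same spread in single values. For H3 its normalized values were 2936, 3182 and 1200 in V replicates 1, 2 and 3 and 1559, 2838 and 4137 in Q, with a log2 fold change of 0.24 (SE 0.47, adjusted p = 0.767). For RNA pol II S5 they were 5573, 2444 and 1327 in V and 1030, 3249 and 3279 in Q (-0.24, SE 0.73, adjusted p = 0.799). The highest and the lowest library were both replicates numbered 1, in V and in Q, and the other 4 lay between them. For H3K4me3 they were 6967, 1225 and 1756 in V and 1174, 1866 and 3248 in Q (-0.36, SE 0.70, adjusted p = 0.656), so 1 V library stood above the rest. For H3K9ac they were 3350, 3832 and 1354 in V and 1757, 1893 and 5093 in Q (-0.01, SE 0.52, adjusted p = 0.994). For H2A.Z they were 3148, 1834 and 1673 in V and 1455, 3536 and 4222 in Q (0.39, SE 0.49, adjusted p = 0.489). V and Q values overlapped in each of these, and the SE exceeded the change.

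The tRNA windows also lay close to one another in these antibodies. Their lowest and highest log2 fold changes were -0.32 (SPMITTRNAVAL.01) and -0.21 (SPMITTRNATHR.01) for RNA pol II S5. They were -0.42 (SPMITTRNAASN.01) and -0.15 (SPMITTRNACYS.01) for H3K4me3, and -0.06 (SPMITTRNAASN.01) and 0.18 (SPMITTRNAGLU.01) for H3K9ac. For H2A.Z they were 0.29 (SPMITTRNAASN.01) and 0.58 (SPMITTRNAILE.01), and for H3 0.08 (SPMITTRNAGLN.01) and 0.28 (SPMITTRNAASN.01). SPMITTRNAASN.01, whose window neighbours that of 15S rRNA, was lowest for 3 antibodies and highest for H3.

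RNA pol II S2, the elongating form, varied less. Its filled shares were 99.0%, 99.0% and 74.4% in V cells and 26.2%, 50.4% and 61.7% in Q cells, and the pairs gave -1.25, -0.22 and 0.17. The read counts of V replicates 1 and 2, both near the placement limit, were nearly identical window by window, 6129 and 6124 in 21S rRNA and 1753 and 1751 in cox1. These libraries held 11558278 and 11633192 reads in all. Over all windows they differed beyond sampling noise (chi-squared per degree of freedom 8.34). Of the tRNA windows, SPMITTRNAVAL.01 had the lowest change (-0.63, SE 0.30) and SPMITTRNAGLY.01 the highest (-0.31, SE 0.24). Q replicates 2 and 3 of S2 and of S5 were counted as 1 sample in means of shares, while the main fits and the pairs kept them as 2 libraries. Over all windows their chi-squared per degree of freedom was 0.98 and 0.876, less than sampling noise without a placement limit. With such a limit the noise can be smaller, so these values do not show that the libraries are 1 sample. Their mitochondrial shares were 0.478% and 0.551% in S2 and 0.733% and 0.724% in S5. Q replicate 1 held 0.228% in S2 and 0.208% in S5, so counting 2 and 3 as 1 sample lowers the Q means. The share was 0.528% ± 0.0497 (SD, n = 3) in V and 0.371% ± 0.203 (SD, n = 2) in Q for S2, and 0.672% ± 0.483 (SD, n = 3) and 0.468% ± 0.368 (SD, n = 2) for S5. With these libraries averaged, the 38 windows gave 0 calls in both.

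Within a library the windows differed little. In the 13 libraries filled over 95%, the coefficient of variation over the 35 windows of full length was 0.114% to 0.939%, so a window held what its length allowed. In the 17 libraries filled under 50% it was 6.44% to 17.6%, with a median of 8.43%, and these libraries carry what can be seen of a profile along the genome. Relative to the median window of its library, the 15S rRNA window was filled 1.09-fold (lowest 1.01, highest 1.22) and stood above 1 in 17 of 17 libraries. The same held for SPMIT.06 (median 1.06) and for the tRNA windows SPMITTRNAASP.01 and SPMITTRNAGLY.01, at 1.09 and 1.12. The low stretch ran through neighbouring, overlapping windows from var1 (0.844, lowest 0.716, highest 0.933) and SPMITTRNAILE.01 (0.871) over atp8 (0.878, lowest 0.630, highest 0.931) to SPMITTRNACYS.01 (0.865) and SPMITTRNAVAL.01 (0.883). These windows and SPMITTRNAGLU.01 (0.919) were above 1 in 0 of 17 libraries. The tRNA median divided by the protein-coding median was 0.959 to 1.08, with a median of 0.996, and it was above 1 in 7 of 17 libraries. Base composition differs along the genome. It was taken over genes as annotated in ASM294v3, not over the windows. The GC content in ASM294v3 was 19.0% in atp8, 26.5% in atp6, 28.6% in cox1, 30.1% in cox3, 30.9% in cox2 and 38.2% in atp9, and 30.1% over the mitochondrial genome against 36.1% over the nuclear one. The tRNA genes ran from 27.5% to 47.9% GC (median 38.4%) and the rRNA genes from 31% to 33.8%. Values of var1 and of single tRNA genes, which make up most of the low stretch, are not given. The part of base composition in the profile was not tested. Since 37 of the 38 windows overlap at least 1 other, and up to 6 share a base, neighbours count the same reads.

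**Figure D5:**
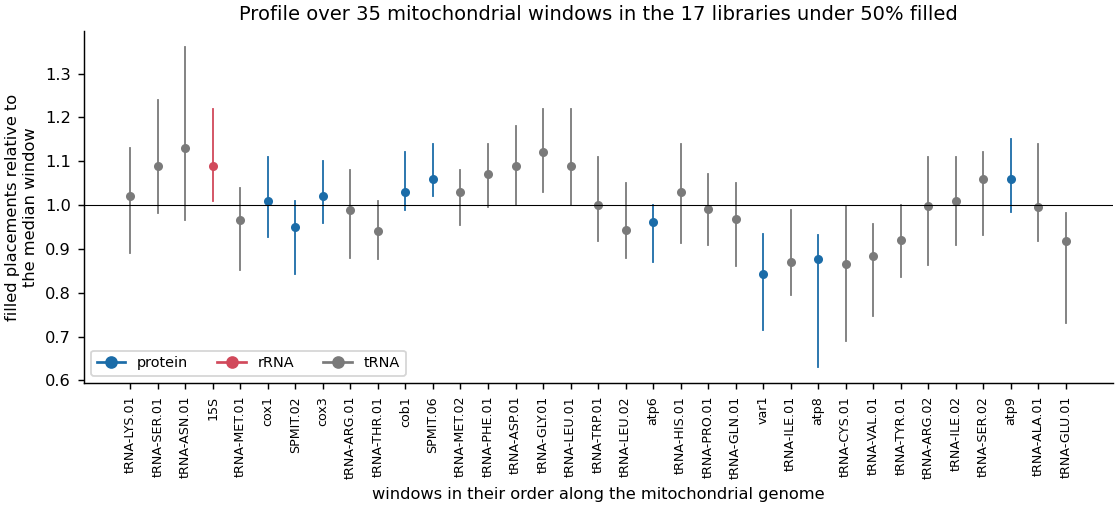
Filled placements of 35 mitochondrial windows relative to the median window of the same library (vertical axis), in genome order; points are medians and lines the range over the 17 libraries filled under 50%, coloured by class. 15S rRNA (median 1.09) and SPMITTRNAGLY.01 (1.12) lie above 1 over their whole range, and var1 (0.844) and atp8 (0.878) below it.

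Nuclear tRNA windows and nuclear partner genes of the mitochondrial genome are set beside these values, and the differences themselves were not tested. Of 117 nuclear tRNA windows tested, 106 rose for H3K4me3 (median 2.29), 63 for RNA pol II S5 (median 1.10), 21 for H3 (median 0.81) and 10 for RNA pol II S2 (median 0.60), against 0 of 25 mitochondrial tRNA windows in each. Among all windows 19.4% rose for H3K4me3, 5.17% for S5, 1.38% for H3 and 1.44% for S2. For H3K9me3, 0 of 117 fell in the nucleus (median 0.12) and 25 of 25 in the mitochondrial genome (median -1.46) with the block. For H3K9me2, 3 of 117 fell (median 0.39) against 25 of 25 (median -1.62) with the block, and without it 0 mitochondrial windows were called in either mark. Among all windows 0.639% fell for H3K9me3 and 0.913% for H3K9me2 with the block. The 29 nuclear genes for subunits of the same respiratory complexes and ATP synthase had 0 calls for H3K9me2 and H3K9me3, with medians of -0.06 and -0.18. For H3K4me3, 14 of the 29 fell and 1 rose (median -0.99), beside 13.8% and 19.4% of all windows. Of 18 nuclear genes for the copying and expression of mitochondrial DNA, 1 rose for H3K4me3, beside 19.4% of all windows. None of them was called for the other 7 antibodies (limma), with medians of -0.06 for H3K9me2 and 0.15 for H3K9me3.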

How the data were processed

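The deposited signal is reads per window divided by 1 size factor per library, in 16 tables that the authors made with BWA 0.7.17, SAMtools 1.17, deepTools 3.3.2 and DESeq2 on ASM294v2, per the submitters' processing notes. The sources do not state how repeated or ambiguous reads were filtered or whether the Drosophila spike-in entered the scaling. The tables were normalized separately, so tests stayed within an antibody. The authors' own fold changes and p-values were not used. Whole reads were recovered in all 96 columns (within 1e-05 reads), 856936 to 20673131 per library in ORF windows.

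The fit, limma 3.58.1 in R 4.3.3 with a variance trend on log2(value + 1), took windows that reached 10 in 3 or more libraries, or 2 where a replicate was dropped. The replicate number was taken as the block because the study removed batch effects, but its methods do not say what the batch was. Recovered reads were also tested with edgeR 4.0.16 and DESeq2 1.42.0, both with the block. In simulated H3 (6579 windows) and H3K9me3 (6577 windows) data, where 200 windows carried a log2 change of 2, each tool recovered 100% of them with 0 other calls. The simulated libraries shared a block effect by replicate number and had no placement limit. Recovery there does not show how calls behave where numbers do not pair samples or windows are near their limit. Placements were counted as 2 strands times (bases + 71). Fold changes of low windows are understated by the pseudocount of 1.

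The members and lists were chosen with earlier results of these data known, and the placement limit was found while the data were analysed. All protein-coding and rRNA windows could be named, and of the tRNA windows the highest and lowest change per antibody or any that differed in call. Those in the profile along the genome were chosen after their values were seen.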

Additional observations from a re-analysis of the deposited data

How the results depend on the processing

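For H3K9me3, 38 windows were called by edgeR, DESeq2, library totals, a pseudocount of 5, no filter, TSS windows and without any 1 replicate. All of these fits kept the replicate block, and edgeR and DESeq2 were not run without it. For H3K9me2 the range of these ORF alternatives was 34 to 38, with 1 in TSS windows. No replicate block gave 0 for both marks, and so did the change relative to H3 (0 for both). In H2A.Z the correlations of same-numbered deviations were 0.516, 0.463 and 0.352, but V replicate 3 matched another Q replicate more closely. In the other 7 antibodies at least 1 pair was under 0.1. H3K9me3 had 0.625, 0.0895 and 0.564, H3K9ac 0.718, 0.0621 and 0.543, and H3K9me2 -0.0295, 0.257 and -0.0452. The replicate numbers therefore do not pair all samples in any of these 7. Dropping the block changed no other call. The share of all windows called is given above for the main fits only, not for these alternatives or for fits without a replicate.

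Leaving out each replicate in turn gave 0 to 36 calls for RNA pol II S5 (medians -1.09 to 0.93), 0 to 29 for H3K9ac (-1.03 to 0.59), 0 to 37 for H2A.Z (-0.05 to 1.27), 0 for S2 (-0.73 to -0.02), H3K4me3 (-0.89 to 0.80) and H3 (-0.66 to 0.77), 34 to 38 for H3K9me2 (-2.02 to -1.23) and 38 for H3K9me3 (-1.67 to -1.22). For S2, TSS windows gave 1 call and a median of -1.30. There the V replicate 3 column equals an H3K9me2 column, and without replicate 3, chosen after seeing the data, 0 were called. Averaging Q replicates 2 and 3 of RNA pol II, also chosen after seeing the data, gave 0. The median share of mitochondrial reads over the 48 libraries was 0.581% in ORF and 1.44% in TSS windows. In the 13 libraries filled over 95%, deeper sequencing could add few reads to these windows.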
